A study of Mus musculus with 8 samples.

Results

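The genes described here encode 28 proteins of the small subunit of the cytosolic ribosome, taken from a list of gene symbols that covers most of that subunit, out of 31417 genes in the count table. They were matched by symbol to 1 Ensembl gene each, and all 28 were found. Polyadenylated RNA was sequenced from hippocampus of 12-month-old mice of 2 genotypes, Dclk3 knockout (KO) and wild type (WT), with 4 libraries of each. Dclk3 is a protein kinase of the doublecortin-like family, and neither genotype carried any other allele or treatment named in the labels. Each library came from 1 hippocampus. The deleted part of Dclk3, the cells it was deleted in, the strain, the sex and the litters have no entry in the labels. The labels do not say whether the 4 libraries of a genotype came from 4 animals, so the p-values measure only how these samples vary, which may in part be technical variation.

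The small subunit binds the mRNA, scans it for the start codon and checks the pairing of each codon with its transfer RNA, while the large subunit forms the peptide bonds. Each ribosome holds 1 copy of most of these proteins. In mammals their mRNAs usually start with a C followed by a run of pyrimidines (C and T in the DNA), the terminal oligopyrimidine or TOP motif, through which mTOR signalling and the RNA-binding protein Larp1 control their translation. In neurons, mRNAs of ribosomal proteins are also found in axons and dendrites. Mammalian genomes carry many processed pseudogenes of ribosomal protein genes, which are intronless copies of their mRNAs.

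Libraries held 29301974 to 36552757 counts, and values are given as CPM, counts scaled to the library total with edgeR's factors. Dclk3 checked the labels: it stood at 23.0, 39.3, 20.8 and 23.5 CPM in WT replicates 1 to 4 and at 8.19, 9.29, 5.92 and 7.45 CPM in KO replicates 1 to 4. The genotypes did not overlap, and the KO mean was 28.9% of the WT mean (log2 fold change -1.79, SE 0.22, adjusted p = 0.234 by edgeR; exact two-sided permutation p = 0.0286, the smallest that 4 against 4 allows). DESeq2 called the decrease, and so did edgeR once WT replicate 2 was left out (adjusted p = 0.0121). Over the 16228 genes tested, edgeR called 0.0% at an adjusted p under 0.05, while 1000 genes, or 6.16%, had an unadjusted edgeR p under 0.05. DESeq2 was fitted to 29064 genes, without edgeR's filter on low counts, and called 5 genes. Its own filter gave no adjusted p to some genes of low counts, Rps16 and Fau among them, so the calls were made over fewer genes. All 12 neuron markers were detected in every library, and their summed level was 15054 ± 854 CPM (SD, n = 4) in WT and 14796 ± 585 CPM (SD, n = 4) in KO.

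Small subunit genes stood slightly higher in KO than in WT, and no single gene passed the test. Summed over the 28 genes, the level was 1148, 1006, 1047 and 1061 CPM in WT replicates 1 to 4 and 1222, 1133, 1109 and 1110 CPM in KO replicates 1 to 4. The genotypes overlapped, because WT replicate 1 exceeded KO replicates 2, 3 and 4. The means were 1066 ± 59.8 CPM in the WT libraries and 1144 ± 53.7 CPM in the KO libraries (SD, n = 4 each), so that KO stood at 107.3% of WT. In bulk tissue, more cells of a type that is rich in these mRNAs and more mRNA per cell cannot be told apart.

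Of the 28 genes, 27 passed the filter on low counts and Rps29 did not. None of the 27 was called, against 0.0% of all genes tested, and their lowest adjusted p was 0.796. At an unadjusted p under 0.05 there was 1 gene higher in KO, Rps24, against 3.96% of all genes tested. The 4 KO values lay above the 4 WT values for 1 gene, Rps19, against 1.88% of all genes, and below them for none, against 1.92%. Both counts are near what 27 genes taken at those shares would hold. In direction, 25 of 27 had a log2 fold change above 0, against 50.1% of all genes, and their median was 0.09 against 0.0003 for all genes. The 27 genes share libraries and are not replicates of the genotype, so the count of directions carries no test.

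The count of directions leaned on 1 library. KO replicate 1 was the highest of the 8 libraries for 19 of the 28 genes, and without it 19 of 27 fold changes lay above 0, with a median of 0.071. WT replicate 2 was the lowest library for 10 genes and KO replicate 1 for none.

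**Figure D1:**
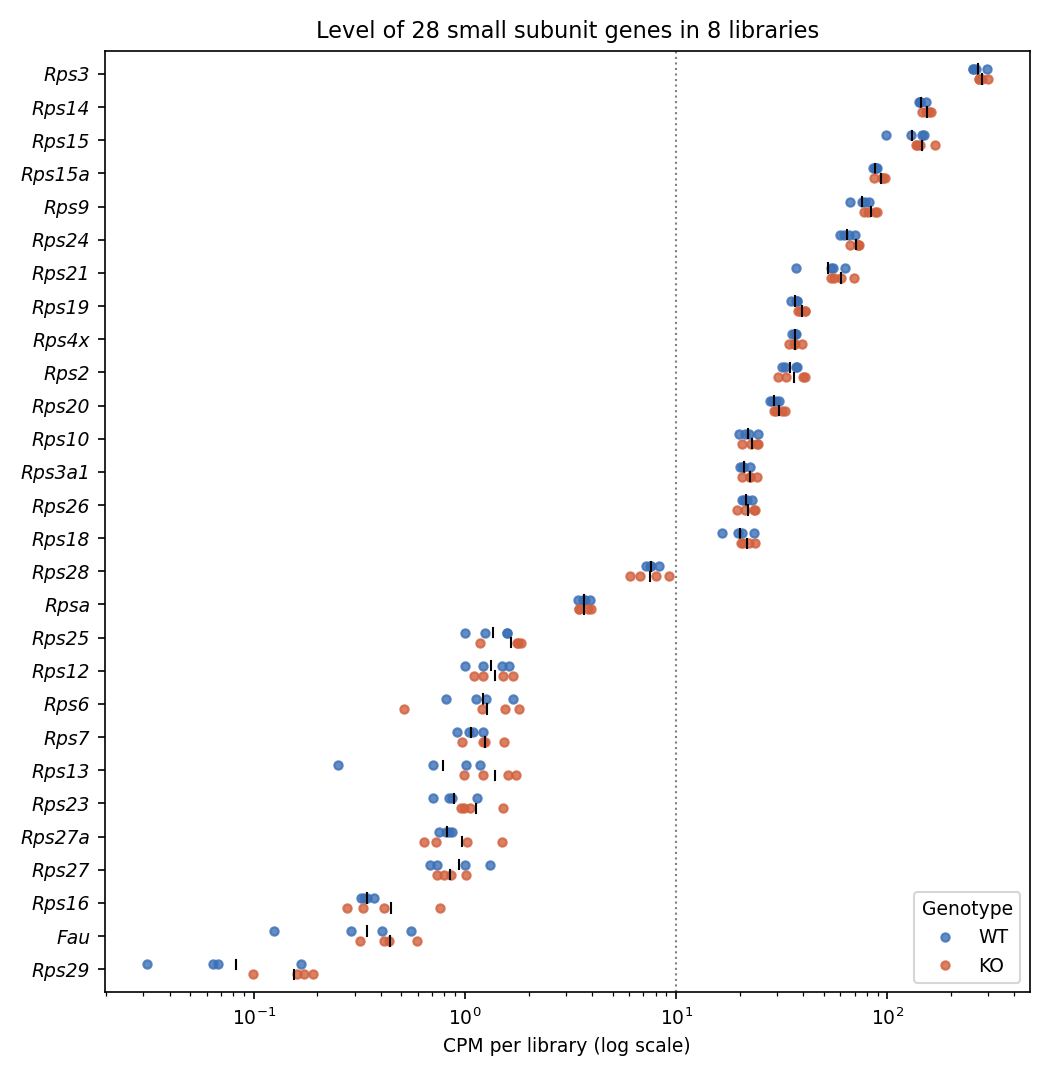
Level of each of the 28 genes (rows, sorted by mean CPM) in the 8 libraries, on a log axis of CPM, with WT and KO in separate colours, a short black line at each group's mean and a dotted line at 10 CPM. Values span from below 0.1 CPM for Rps29 to 299 CPM for Rps3, and WT and KO points overlap in every row but that of Rps19.

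Of the 28 genes, 15 had a mean of 10 CPM or more, from 20.8 CPM upward, and 13 had a mean of 0.119 to 7.57 CPM. Per kilobase of coding sequence, the 15 stood between 27.4 and 376 CPM and the 13 between 0.709 and 36.6 CPM. Per kilobase of the annotated mRNA used for each gene, they stood between 8.08 and 278 CPM and between 0.305 and 17.3 CPM. On both scales Rps28, under 10 CPM, overlapped the other set. Reads were counted over whole genes, and which mRNA was expressed is not known, so neither length gives an exact level. The proteins are made in like numbers for each subunit, but the measured levels of their mRNAs ran from 0.709 to 376 CPM per kb of coding sequence. Replicates were closer together in the first set: the median coefficient of variation within WT was 6.73% in the 15 and 20.8% in the 13.

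Coding sequence shared with other genes is described for the same sets. Every 50-base window of each gene's coding sequence was searched for exact copies, on either strand, in the annotated transcripts of other genes. Among the 13 genes under 10 CPM, the share of windows with a copy elsewhere was 95.3% to 100%, and in 10 of them (Rps6, Rps12, Rps13, Rps16, Rps23, Rps27, Rps27a, Rps28, Rps29 and Fau) every window had one. Among the 15 others it ran from 8.09% in Rps3 to 93.0% in Rps10, with a median of 81.1%. For 14434 tested protein-coding genes the median share was 0%, and 5.97% of them had a copy for more than 50% of their windows. The genes sharing windows with the 28 included 298 pseudogenes, of which 223 were in the count table and 165 of those had at most 10 counts over all 8 libraries together. How reads that match several genes were counted, and the read length, were given by no source used here, so the part of shared sequence in the low levels was not tested. Every level of the 13 genes is uncertain for that reason. The same limit applies among the 15 others, of which 11 had a copy for more than 50% of their windows.

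**Figure D2:**
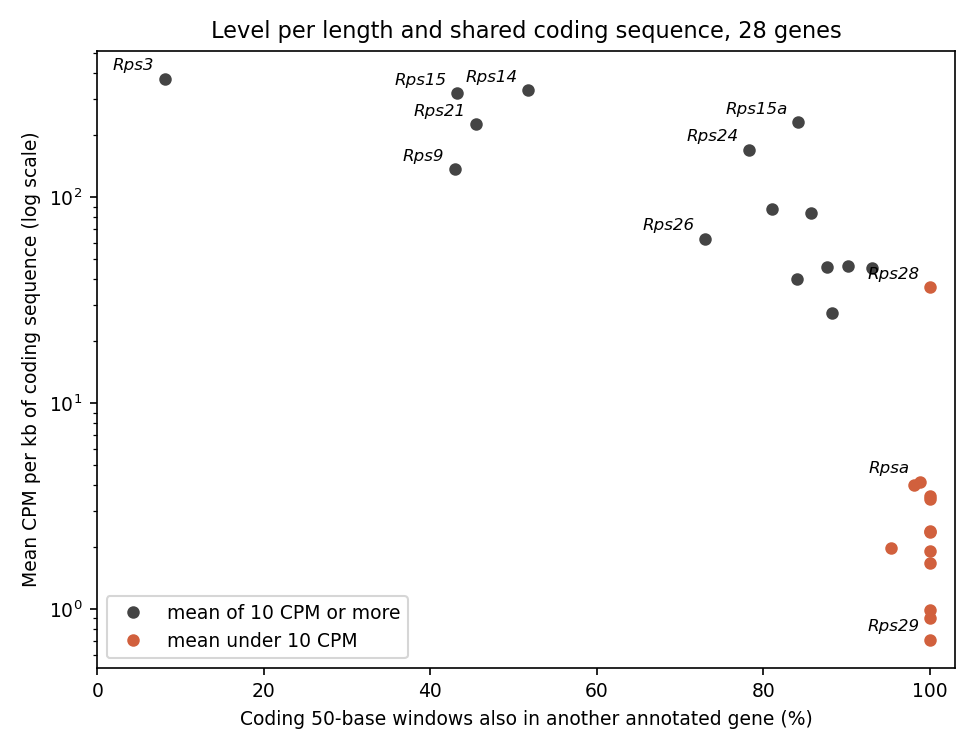
Mean level per kilobase of coding sequence (vertical log axis, CPM per kb) against the share of 50-base coding windows that also occur in another annotated gene (horizontal axis, percent), 1 point per gene, coloured by whether the mean is 10 CPM or more. Rps3, with 8.09% shared, stands at the top left, and all 13 genes under 10 CPM lie at 95.3% or more.

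Short stretches give examples of this likeness, and for Rps3 and Rps24 those with the most mismatches of successive 60-base stretches were taken. They run from coding base 181 to 240 for Rps3 and Rps24 and over the last 60 bases of the coding sequence, with no stop codon, for Rps6, where the kinases named after this protein phosphorylate its C-terminal tail. Each is set against a processed pseudogene, with mismatched bases in capitals, on GRCm38.
Rps3, chr7:99482276-99482335, minus strand: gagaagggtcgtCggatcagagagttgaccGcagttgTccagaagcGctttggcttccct
Gm8130, chr16:23050303-23050362, plus strand: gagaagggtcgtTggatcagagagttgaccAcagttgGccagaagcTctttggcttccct
Rps24, chr14:24492018-24492077, plus strand: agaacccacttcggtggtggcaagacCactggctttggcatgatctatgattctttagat
Rps24-ps3, chrX:79195227-79195286, plus strand: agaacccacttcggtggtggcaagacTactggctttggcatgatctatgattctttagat
Rps6, chr4:86854705-86854764, minus strand: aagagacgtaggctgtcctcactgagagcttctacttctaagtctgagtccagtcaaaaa
Rps6-ps4, chr2:75191076-75191135, minus strand: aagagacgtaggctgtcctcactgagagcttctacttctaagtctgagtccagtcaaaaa
Rps3 differed from Gm8130 at 24 of 570 aligned coding bases, Rps24 from Rps24-ps3 at 4 of 399, and Rps6 from Rps6-ps4 at 0 of 747. These pseudogenes were chosen after the sequences and counts were seen. Rps6-ps4 had 2 counts in the 8 libraries together and Rps24-ps3 had 64.

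The RefSeq start sites of 24 of the 28 genes were found in the promoter table (GRCm38.p6). Rps14, Rps20, Rps27a and Rps29 were not among them. A run of at least 5 C or T bases covering the annotated start base was present in 9 of the 24 genes (37.5%), against 11.8% of 27025 genes, and a run of at least 9 in 8 genes (33.3%), against 3.60%. A gene with several annotated starts was counted if any of them had the run. A start whose annotated base was not C or T was scored as having no run, whatever lay beside it. The counts thus depend on the annotated start base and do not show which mRNAs lack the motif. The runs are shown in capitals for 5 genes that carry one, in windows of 20 bases before the start and 15 from it on. Another annotated start of Rps24 had no run.
Fau, chr19:6057927-6057961, plus strand: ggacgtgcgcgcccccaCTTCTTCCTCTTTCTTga
Rps10, chr17:27635230-27635264, minus strand: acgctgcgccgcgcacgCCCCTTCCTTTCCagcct
Rps18, chr17:33955651-33955685, minus strand: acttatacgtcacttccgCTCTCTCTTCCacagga
Rps6, chr4:86857353-86857387, minus strand: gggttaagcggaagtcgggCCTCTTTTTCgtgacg
Rps24, chr14:24490658-24490692, plus strand: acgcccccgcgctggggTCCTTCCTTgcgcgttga
The letters CGGAAG or, on the other strand, CTTCCG, the core bound by ETS-family factors, were in the 300-base promoter windows of 18 of 24 genes (75%), against 18.8% of all genes. AAGATGGC or GCCATCTT, a core of sites bound by YY1, was in 3 of 24 (12.5%) against 3.19%. TATAAA or TTTATA was in 2 of 24 (8.33%) against 15.7%. A gene was counted if any of its windows held the letters. A match describes letters in these windows and is not a bound site.

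Genes of the head of the subunit came first in the order of structure, and 12 of the 28 belong there. Their summed level was 518 ± 34.9 CPM in the WT libraries and 554 ± 31.4 CPM in the KO libraries (SD, n = 4 each), with 10 of 11 tested genes above 0 and none called. The other 16, of the body and platform, summed to 548 ± 25.0 CPM in the WT libraries and 590 ± 22.4 CPM in the KO libraries, with 15 of 16 above 0 and none called. KO stood at 106.9% of WT in the head and at 107.7% in the body and platform. Gene positions below are GENCODE M21 coordinates on GRCm38 (mm10), and the values count reads over the whole gene.

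Rps3 (ENSMUSG00000030744, chr7:99477896-99483738, minus strand) lines the channel through which mRNA enters and had the highest level of the 28 genes per kb of coding sequence, 376 CPM. Per kb of mRNA it stood at 144 CPM, below Rps15 at 278 CPM and Rps14 at 191 CPM. It stood at 296, 264, 256 and 255 CPM in WT replicates 1 to 4 and at 299, 281, 270 and 270 CPM in KO replicates 1 to 4. Replicate 1 was the highest in both genotypes, and 3 KO libraries lay inside the WT range. The difference was within the spread between libraries (log2 fold change 0.065, SE 0.067, adjusted p = 0.868 by edgeR), and the fold change was 0.037 without KO replicate 1 and 0.12 without WT replicate 1.

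Rps15 (ENSMUSG00000063457, chr10:80292453-80294114, plus strand) lies near the site where transfer RNA is read. Its WT values were 149, 99.1, 129 and 146 CPM and its KO values 167, 143, 139 and 137 CPM. WT replicate 2 stood far below the other 7 libraries. The log2 fold change of 0.16 (SE 0.12, adjusted p = 0.824 by edgeR) became 0.054 without that library. Rps21, of the body, had the same low library, with 37.1 CPM in WT replicate 2 and 54.1 to 69.5 CPM in the 7 others.

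Rps19 (ENSMUSG00000040952, chr7:24884371-24889806, plus strand) is needed to mature the small subunit and is the gene most often mutated in Diamond-Blackfan anaemia. Its WT values were 37.2, 37.3, 36.8 and 35.2 CPM and its KO values 40.9, 38.0, 40.9 and 38.7 CPM. All KO libraries lay above all WT libraries, with KO replicate 2 close to the highest WT library. The log2 fold change of 0.11 (SE 0.052) did not pass the test over all genes (adjusted p = 0.796 by edgeR). Its coding windows were 81.1% shared, and 11 of its pseudogenes in the table held 198 counts in all against 9761 for Rps19 itself.

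Rps10 and Rps20 sit close together at the mRNA entry side and carry the ubiquitin that marks stalled ribosomes. Rps10 (ENSMUSG00000052146, chr17:27630418-27636669, minus strand) stood at 24.5, 22.2, 21.3 and 19.9 CPM in the WT libraries and at 22.5, 24.3, 20.6 and 24.2 CPM in the KO libraries. Rps20 (ENSMUSG00000028234, chr4:3831334-3835665, minus strand) stood at 28.5, 27.8, 30.6 and 29.6 CPM in the WT libraries and at 32.8, 31.6, 28.9 and 29.8 CPM in the KO libraries. Both genes overlapped between genotypes, with log2 fold changes of 0.058 (SE 0.083) and 0.081 (SE 0.062). That of Rps10 was 0.013 without WT replicate 4 and 0.11 without WT replicate 1, and that of Rps20 was 0.054 without KO replicate 1. Exons of Rps10 overlap those of the annotated genes Gm15420 and RPS10-NUDT3, so its counts are uncertain.

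Rps16 reaches with its tail toward the transfer RNA that holds the growing chain. Rps16 (ENSMUSG00000037563, chr7:28350652-28353155, plus strand) stood at 0.334, 0.343, 0.321 and 0.371 CPM in the WT libraries and at 0.762, 0.331, 0.277 and 0.416 CPM in the KO libraries, from 8 to 28 counts per library. KO replicate 1 alone stood high, and the log2 fold change of 0.41 (SE 0.34) became 0.0053 without it. Rps25 (ENSMUSG00000009927, chr9:44407139-44410427, plus strand), which helps the subunit to start on some viral and cellular mRNAs without a cap, stood at 1.002, 1.25, 1.57 and 1.59 CPM in the WT libraries and 1.85, 1.79, 1.76 and 1.18 CPM in the KO libraries. In Rps25 3 KO libraries lay above all WT libraries and KO replicate 4 lay among the low WT libraries (log2 fold change 0.29, SE 0.22). Without WT replicate 1 the fold change of Rps25 was 0.16, and without KO replicate 4 it was 0.42. Exons of Rps25 overlap those of Trappc4 and Ccdc84.

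Rps27a is made as a fusion with ubiquitin that is cut off after translation. Rps27a (ENSMUSG00000020460, chr11:29545846-29548109, minus strand) stood at 0.751, 0.810, 0.867 and 0.844 CPM in the WT libraries and at 1.497, 1.02, 0.727 and 0.640 CPM in the KO libraries. The KO libraries spanned more than the WT libraries on both sides, and the log2 fold change of 0.26 (SE 0.28) turned to -0.031 without KO replicate 1 and was 0.42 without KO replicate 4. Exons of Rps27a overlap those of Clhc1. Rps29 (ENSMUSG00000034892, chr12:69157722-69159186, minus strand), which binds zinc, had 1 to 7 counts per library, or 0.167, 0.0312, 0.0642 and 0.0675 CPM in the WT libraries and 0.190, 0.0992, 0.173 and 0.160 CPM in the KO libraries. It was not tested, and its 6 pseudogenes in the table held 103 counts in all against 31 for Rps29.

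The remaining head genes were Rps12, Rps18 and Rps28. Rps18, near the contact with the large subunit, had a mean of 20.01 ± 2.87 CPM in the WT libraries and 21.6 ± 1.47 CPM in the KO libraries (SD, n = 4 each), a log2 fold change of 0.11 that was 0.029 without WT replicate 4 and 0.20 without WT replicate 2. Rps28, at the mRNA exit, had the highest level of the genes under 10 CPM, with 7.63 ± 0.479 CPM in the WT libraries and 7.51 ± 1.41 CPM in the KO libraries, and a log2 fold change of -0.021 that ran from -0.13 to 0.071 with single libraries left out. Exons of Rps28 overlap those of Kank3. Rps12 had 32 to 62 counts per library and a log2 fold change of 0.055 that ran from -0.058 to 0.16 with single libraries left out.

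In the body, Rps2, Rps9 and Rps23 shape the decoding centre and the mRNA entry. Rps9 (ENSMUSG00000006333, chr7:3703993-3706897, plus strand) stood at 81.5, 66.5, 75.5 and 78.6 CPM in the WT libraries and at 87.1, 88.9, 77.8 and 81.3 CPM in the KO libraries. WT replicate 2 was the lowest library and KO replicates 1 and 2 exceeded every WT library (log2 fold change 0.15, SE 0.073, adjusted p = 0.796 by edgeR, and 0.096 without WT replicate 2). Rps2 (ENSMUSG00000044533, chr17:24718116-24721929, plus strand) stood at 37.1, 37.2, 31.7 and 32.6 CPM in the WT libraries and at 40.8, 40.01, 33.1 and 30.5 CPM in the KO libraries. In both genotypes replicates 1 and 2 of Rps2 stood above replicates 3 and 4, and the log2 fold change was 0.059 (SE 0.10), or 0.00025 without KO replicate 1 and 0.13 without KO replicate 4. Rps2 shared windows with 71 pseudogenes, the most of the 28 genes.

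Rps23 (ENSMUSG00000049517, chr13:90922958-90924950, plus strand) stood at 1.14, 0.873, 0.707 and 0.844 CPM in the WT libraries and at 1.06, 0.992, 1.52 and 0.960 CPM in the KO libraries. Its log2 fold change of 0.34 (SE 0.23) became 0.17 without KO replicate 3, the highest library.

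Rps24 (ENSMUSG00000025290, chr14:24487125-24496959, plus strand), needed to process the precursor of ribosomal RNA, had the lowest p of the 27 tested genes. It stood at 70.1, 65.8, 62.7 and 60.0 CPM in the WT libraries and at 73.7, 66.3, 72.3 and 73.0 CPM in the KO libraries. In Rps24 3 KO libraries exceeded every WT library and KO replicate 2 lay among the WT values. The KO mean was 110.3% of the WT mean (log2 fold change 0.14, SE 0.063, unadjusted p = 0.0474, adjusted p = 0.796 by edgeR). Leaving out single libraries gave log2 fold changes of 0.11 to 0.18. The unadjusted p then ran from 0.0181 to 0.144 and was under 0.05 only without WT replicate 1, WT replicate 2 or KO replicate 2. It was 0.0653 by DESeq2 and 0.0759 by limma-voom. Its 8 pseudogenes in the table held 1620 counts in all against 17443 for Rps24. Of these counts 1056 were of Gm2830, which holds 10.6% of the Rps24 windows, and 64 of Rps24-ps3, which holds 60%.

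Rps6 (ENSMUSG00000028495, chr4:86854660-86857412, minus strand), the phosphorylated protein whose coding end is shown above, stood at 1.25, 0.810, 1.12 and 1.69 CPM in WT. In KO it stood at 1.80, 1.55, 1.21 and 0.512 CPM, so that the highest and the lowest library were both KO. The log2 fold change of 0.066 (SE 0.35) ranged from -0.15 to 0.33 with single libraries left out. Between 16 and 66 counts per library lay behind these values.

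Rps13 (ENSMUSG00000090862, chr7:116331505-116334195, minus strand), which makes a bridge to the large subunit, had the largest fitted fold change of the 27. It stood at 0.250, 1.18, 0.707 and 1.01 CPM in the WT libraries and at 1.74, 1.22, 1.59 and 0.992 CPM in the KO libraries, from 9 to 64 counts per library. WT replicate 1 was far below the rest, and KO replicate 4 lay inside the WT range. The log2 fold change of 0.83 (SE 0.39, adjusted p = 0.796 by edgeR) became 0.52 without WT replicate 1. Rps13-ps2, a pseudogene on chromosome 7 chosen after its values were seen, holds every coding window of Rps13. It had 98, 76, 71 and 81 counts in WT and 158, 101, 99 and 70 counts in KO (log2 fold change 0.40, adjusted p = 0.796 by edgeR), more in every library than Rps13.

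On the platform, Rps14 (ENSMUSG00000024608, chromosome 18, plus strand), whose loss of 1 copy is linked to a macrocytic anaemia in people, stood at 152, 143, 144 and 140 CPM in the WT libraries and at 158, 146, 161 and 153 CPM in the KO libraries. KO replicate 2 of Rps14 lay inside the WT range and the other KO libraries above it (log2 fold change 0.093, SE 0.055, adjusted p = 0.796 by edgeR). Rps15a (ENSMUSG00000008683, chr7:118104372-118116188, minus strand), in the body beside the platform, stood at 89.0, 86.0, 87.7 and 88.7 CPM in the WT libraries and at 97.1, 94.4, 86.3 and 95.1 CPM in the KO libraries. Its WT libraries had the smallest coefficient of variation of the 28 genes, 1.54%. KO replicate 3 of Rps15a lay among the WT values while the 3 others exceeded them (log2 fold change 0.086, SE 0.053, adjusted p = 0.797 by edgeR).

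Rps4x (ENSMUSG00000031320, chrX:102184941-102189394, minus strand), the X-linked member, stood at 35.4, 36.6, 36.97 and 36.7 CPM in the WT libraries and at 39.6, 34.2, 36.6 and 36.0 CPM in the KO libraries. The highest and the lowest library of Rps4x were both KO, and its log2 fold change of 0.0080 (SE 0.058) ran from -0.028 to 0.041 with single libraries left out. Rpsa (ENSMUSG00000032518, chr9:120127689-120132369, plus strand), which also occurs as a cell-surface laminin receptor, stood at 3.70, 3.93, 3.44 and 3.61 CPM in the WT libraries and at 3.97, 3.84, 3.46 and 3.46 CPM in the KO libraries. The ranges nearly coincided, and its log2 fold change of 0.0052 (SE 0.12) ran from -0.029 to 0.042 with single libraries left out.

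Fau (ENSMUSG00000038274, chr19:6057844-6059524, plus strand) encodes a subunit protein fused to a ubiquitin-like protein. It stood at 0.557, 0.125, 0.289 and 0.405 CPM in the WT libraries and at 0.435, 0.595, 0.415 and 0.320 CPM in the KO libraries, from 4 to 20 counts per library. WT replicate 2 was low, and the log2 fold change of 0.34 (SE 0.40) became 0.071 without it and 0.69 without WT replicate 1. Gm9843, a pseudogene that holds every coding window of Fau and was chosen after its values were seen, had 86, 59, 58 and 73 counts in WT and 87, 68, 53 and 63 in KO. In each library that was more than Fau itself had, and the log2 fold change of Gm9843 was -0.014.

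The remaining genes of the body and platform were Rps3a1, Rps7, Rps21, Rps26 and Rps27. Rps3a1, which touches initiation factors, had a mean of 21.0 ± 0.974 CPM in the WT libraries and 22.4 ± 1.53 CPM in the KO libraries (SD, n = 4 each), a log2 fold change of 0.090 that was 0.049 without KO replicate 4. Rps26, at the mRNA exit and mutated in some cases of Diamond-Blackfan anaemia, had 21.5 ± 1.09 CPM in the WT libraries and 21.9 ± 1.92 CPM in the KO libraries, a log2 fold change of 0.025 that ran from -0.0089 to 0.075 with single libraries left out. Rps21 had a log2 fold change of 0.20 (SE 0.15), which was 0.065 without WT replicate 2 and 0.30 without WT replicate 1. Rps7 had 0.22 (SE 0.20), and 0.11 without KO replicate 1. Rps27 had -0.13 (SE 0.25), from -0.25 without WT replicate 2 to 0.068 without WT replicate 4. Rps27 and Rps28 were the 2 tested genes below 0 with all libraries kept.

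**Figure D3:**
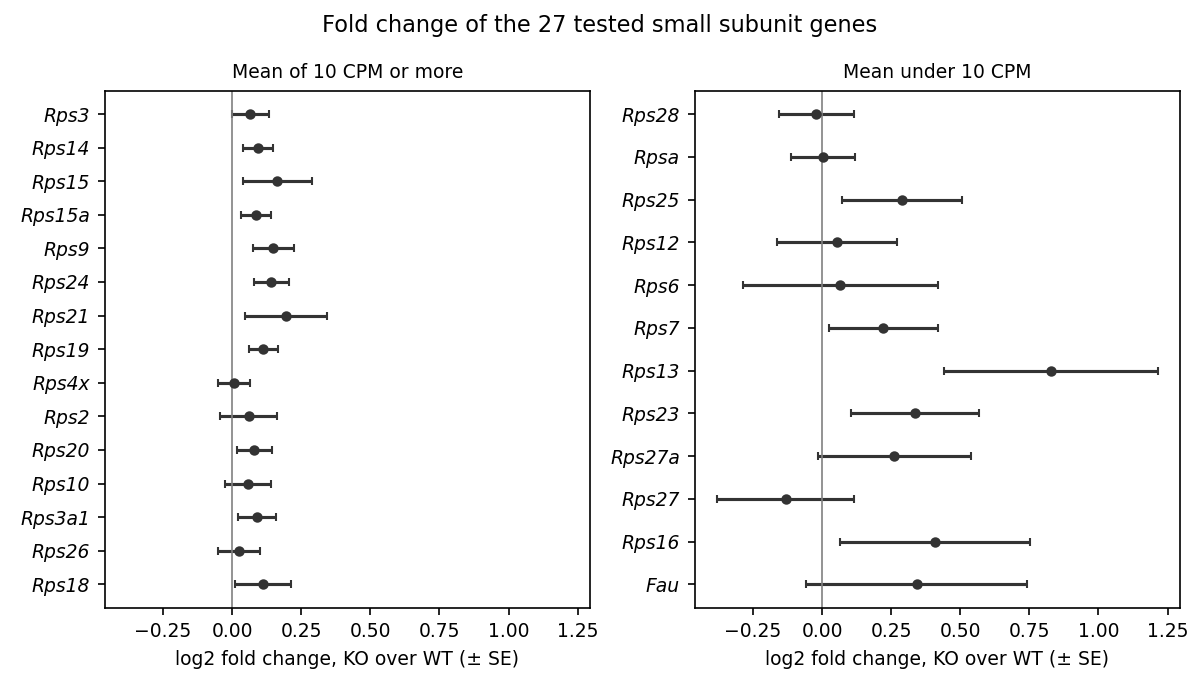
Log2 fold change of KO over WT with its standard error for the 27 tested genes (rows, highest mean CPM at the top), from 4 libraries per genotype, split by a mean of 10 CPM. All 15 points on the left lie between 0.008 and 0.20, while the 12 on the right spread from -0.13 to 0.83 with wider error bars.

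Split by depth, the 15 genes of 10 CPM or more were all above 0, with a median of 0.090 and a range of 0.008 to 0.20. Of the 9882 genes in the series with a mean of 10 CPM or more, 41.1% lay above 0, with a median of -0.021. Of the 12 tested genes under 10 CPM, 10 lay above 0, with a median of 0.24. Without KO replicate 1, 13 of the 15 were above 0 with a median of 0.087.

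The libraries differed in how these 15 genes stood together. All 15 lay above their own mean over the 8 libraries in KO replicate 1, with a median deviation of 0.12 in log2 CPM. The medians in KO replicates 2, 3 and 4 were 0.053, -0.016 and 0.022, and 9, 7 and 8 genes lay above their means. WT replicate 1 had a median deviation of 0.037 with 10 genes above, higher than the medians of KO replicates 3 and 4. The medians in WT replicates 2, 3 and 4 were -0.050, -0.072 and -0.060, with 3, 2 and 3 genes above.

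**Figure D4:**
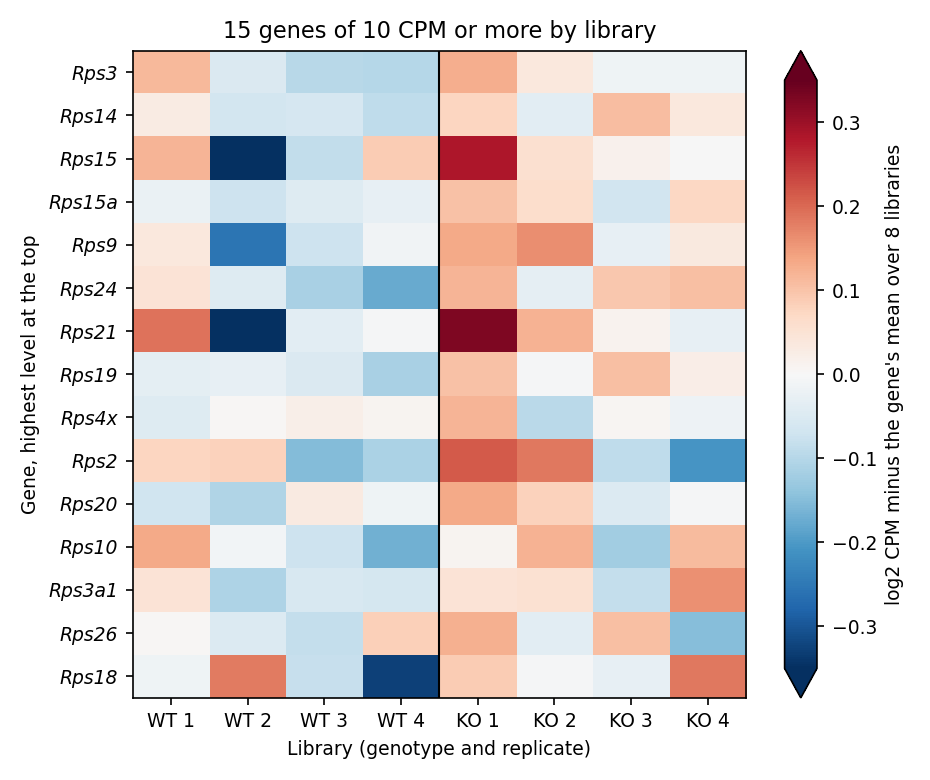
Deviation of log2 CPM from each gene's mean over the 8 libraries (colour, red above and blue below), for the 15 genes of 10 CPM or more (rows) in each library (columns), with a line between WT and KO. The column of KO replicate 1 is above the mean for all 15 genes, and Rps15 and Rps21 are at -0.47 and -0.58 in WT replicate 2, beyond the colour scale.

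Outside the list of 28, Rack1, the signalling scaffold on the head, stood at 182 ± 1.71 CPM in the WT libraries and 188 ± 13.5 CPM in the KO libraries (SD, n = 4 each), a log2 fold change of 0.049 (SE 0.060). KO replicate 1 of Rack1 alone stood high, at 209 CPM, with 180 to 183 CPM in the other KO libraries and 181 to 185 CPM in WT. Rps27l, which encodes a variant of Rps27, and Rps4l, annotated as a transcribed processed pseudogene, had log2 fold changes of -0.031 and -0.070. None of these genes was called by edgeR.

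The large subunit, the nearest set of genes, was measured with the same libraries. Of 45 tested genes, 38 lay above 0, with a median of 0.093, and none was called. Their summed level was 1771, 1542, 1642 and 1724 CPM in WT replicates 1 to 4 and 1857, 1764, 1701 and 1681 CPM in KO replicates 1 to 4. KO replicate 1 was the highest and WT replicate 2 the lowest library for both subunits. The difference between the subunits was not tested. The large subunit also shared much coding sequence, with a median of 93.3% of windows. Rpl34 and Rpl13a had its lowest p, with log2 fold changes of 0.20 (SE 0.073) and 0.22 (SE 0.084), each at an edgeR adjusted p of 0.796.

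Genes that act on or with the small subunit were counted in the same way. Above 0 lay 50.1% of all genes tested (median 0.0003) and 41.1% of those of 10 CPM or more (median -0.021). Of 29 initiation factors, 4 lay above 0 and 25 below, with a median of -0.053. Their lowest p were those of Eif3l, a subunit of the factor that binds the small subunit, at 69.9 ± 3.61 CPM in the WT libraries and 64.1 ± 3.30 CPM in the KO libraries, and of Eif4a1, the RNA helicase, at 28.1 ± 1.51 and 30.5 ± 1.69 CPM. Of 48 assembly factors, 19 lay above 0, with a median of -0.019. KO replicate 1, the highest library for the small subunit genes, was the lowest for the summed level of both lists, at 3992 CPM for initiation factors and 1407 CPM for assembly factors. Noc4l and Emg1, both nucleolar assembly factors, had log2 fold changes of -0.25 (SE 0.089) and 0.18 (SE 0.067). None of these genes was called.

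Of 20 genes of mTOR signalling and translation control, not all of which are known to act on TOP mRNAs, 4 lay above 0. Their median was -0.037. Larp1 had 141 ± 9.91 CPM in the WT libraries and 131 ± 6.998 CPM in the KO libraries, and Rptor, the mTOR partner raptor, had 90.7 ± 3.64 and 85.5 ± 4.41 CPM. Of 14 other TOP mRNAs, 9 lay above 0, with a median of 0.047. Hnrnpa1, an RNA-binding protein, and Snhg1, a host gene of small nucleolar RNAs, had log2 fold changes of 0.23 (SE 0.090) and 0.37 (SE 0.20).

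Of 13 genes of ribosome quality control, 4 lay above 0, with a median of -0.046. Usp10, which removes ubiquitin from small subunit proteins, and its partner G3bp1 had log2 fold changes of -0.14 (SE 0.071) and -0.11 (SE 0.059). Of 33 nuclear genes listed for the mitochondrial small subunit, which is built separately, 21 lay above 0, with a median of 0.018. The list includes Mrps18a, Mrps30 and Mrps36, which despite their names do not encode proteins of that subunit. Chchd1 and Mrps30 had the lowest p of the list, with log2 fold changes of 0.26 (SE 0.095) and -0.13 (SE 0.081). No gene in these lists was called by edgeR.

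**Figure D5:**
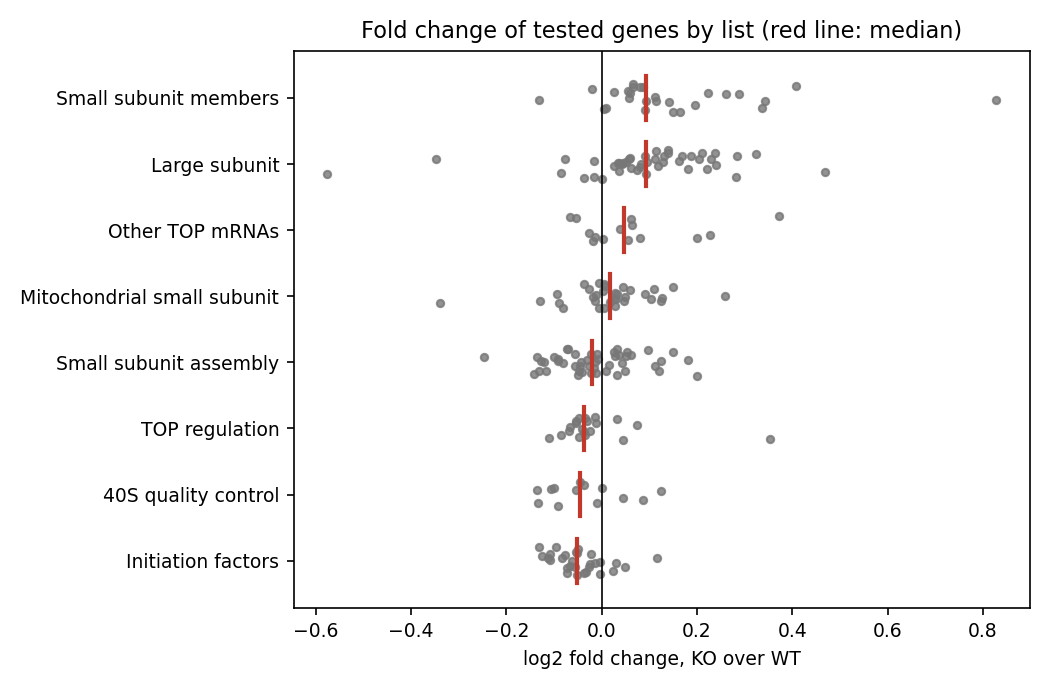
Log2 fold change of KO over WT (horizontal axis) of each tested gene (grey points, spread vertically for sight only) in 8 lists (rows), with a red line at each list's median. The medians of the small and large cytosolic subunits stand at 0.09, those of assembly factors, initiation factors, quality control and TOP regulation below 0. The median of all genes of 10 CPM or more, not drawn, was -0.021.

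Markers of other cells differed between libraries as well. All 5 red cell markers had an unadjusted edgeR p under 0.05 and stood higher in KO, against 3.96% of all genes tested, and none was called. Most of the 5 are globin genes, so they are not 5 separate results. Their summed level ran from 69.2 to 102 CPM in the WT libraries and from 79.0 to 174 CPM in the KO libraries. Its highest library was KO replicate 1, as for the small subunit genes. Of 8 oligodendrocyte markers, 7 lay above 0, with sums of 3549 to 5071 CPM in the WT libraries and 4327 to 4866 CPM in the KO libraries. Of 8 choroid plexus markers, 7 lay above 0, with sums of 73.0 to 2204 CPM in the WT libraries and 188 to 3432 CPM in the KO libraries. Choroid plexus sums were low in KO replicate 1 (188 CPM), where the small subunit genes were highest.

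Of 8 microglia markers, 8 lay above 0, with sums of 541 to 629 CPM in the WT libraries and 580 to 662 CPM in the KO libraries. Of 8 endothelial markers, 7 lay above 0, with sums of 305 to 355 and 306 to 381 CPM, and of 8 astrocyte markers, 6, with sums of 7350 to 8846 and 7418 to 8808 CPM. Of 12 neuron markers, 2 lay above 0, and 3 of the 10 below it had an unadjusted edgeR p under 0.05. Over all 16228 genes tested, 357 stood lower in KO at that threshold. No marker was at 0 in any library. The part of these cells in the level of the small subunit genes was not tested.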

How the data were processed

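The authors deposited raw read counts per Ensembl gene, whole numbers without normalization, for 8 libraries. Libraries were made from 1000 ng of total RNA with a stranded poly(A) kit, per the labels' protocols. Per the submitters' processing notes, bcl2fastq 2.17.1.14 and build mm10 were used. No source used here gives the read length, the aligner, the counter or the use of strand in counting.

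The counts were fitted with edgeR 4.0.16 in R 4.3.3 (TMM scaling, filterByExpr, robust quasi-likelihood F test, Benjamini-Hochberg adjustment over 16228 genes, called at an adjusted p under 0.05), after the steps were tested on simulated data. SE is the size of the log2 fold change divided by the square root of F. CPM uses the TMM factors, and 1 count equalled 0.0274 to 0.0341 CPM before them. PCR reads are not independent molecules, so depth bounds counting error only. Libraries of a genotype differed by more than sampling noise (chi-square per degree of freedom 8.85 to 40.9). Symbols were matched for 31292 genes and not for 125. Shared windows were 50 bases of the coding sequence of 1 annotated mRNA per gene (GENCODE M21).

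The members and lists were chosen with earlier results of these data known. The split at 10 CPM and the grouping into head, body and platform were chosen after the values were seen. Values in every library were given, by rule, for the 8 genes with the lowest p, the 3 highest and 3 lowest per coding length, and 9 named for their role. From other lists the 2 genes with the lowest p were named. Sensitivity was assessed with DESeq2 1.42.0, limma-voom (limma 3.58.1) with sample quality weights, other scalings and filters, no robust estimation, a replicate block and each library left out. Values of some other small subunit genes are not reported here.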

Additional observations from a re-analysis of the deposited data

Results flagged for a closer look

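Single libraries stood apart from the other 3 of their genotype in 2 of 60 groups of values examined, by the gap to the nearest library over the group's range, set against Dixon's critical value. Chance alone flags about 1 in 20 such groups. Rps25 had 1.18 CPM in KO replicate 4 and 1.76 to 1.85 CPM in the other KO libraries. Dclk3 had 39.3 CPM in WT replicate 2 and 20.8 to 23.5 CPM in the other WT libraries.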

How the results depend on the processing

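The number of genes called was 0 in the edgeR fit, 5 by DESeq2 and 1 with the replicate block, and 0 to 1 with single libraries left out. The log2 fold change of Dclk3 was called by DESeq2 (-1.80, adjusted p = 5.25e-14) and with the replicate block (-1.76, adjusted p = 0.00339), and ran from -1.88 to -1.54 with single libraries left out (adjusted p 0.0121 to 0.997). The labels do not say that the replicate numbers pair the samples. Deviations of same-numbered libraries correlated at 0.14, 0.12, -0.22 and -0.014. So few libraries cannot exclude a shared litter or batch, so the block was kept as an alternative only.

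The 1 small subunit gene at an unadjusted p under 0.05 became 2 with upper quartile factors, without a filter, with a filter of 1 CPM in 4 libraries and with limma-voom, 4 with library totals only, 0 with the replicate block and 0 to 2 with single libraries left out. Rps24 was not among them by limma-voom (Rps13 and Rps19), and by DESeq2 the 1 gene was Rps13. The cause was not tested. Genes without overlap numbered 1 to 5 with single libraries left out, 5 without WT replicate 1. Fewer libraries make overlap less likely by construction. Genes above 0 numbered 19 (without KO replicate 1) to 26, and their median ran from 0.071 to 0.13. Over all genes, the number at an unadjusted p under 0.05 was 1505 by limma-voom and 556 (without WT replicate 4) to 1777 (without KO replicate 4) with single libraries left out. No scaling moved the median of all genes beyond 0.027.

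The sign turned for Rpsa with DESeq2 (-0.00071), for Rps4x (-0.014) and Rps12 (-0.028) with limma-voom and for Rps28 with library totals (0.0078). With single libraries left out it turned for 8 of the 27 genes: Rps12, Rps26, Rps27 and Rps28, with ranges given above, and Rps4x (-0.028 to 0.041), Rps6 (-0.15 to 0.33), Rps27a (-0.031 to 0.42) and Rpsa (-0.029 to 0.042). In all, 447 of the values recomputed kept their direction and their side of the threshold or moved little. Of the rest, 27 moved, 12 reversed in sign and 3 grew stronger. Depth limits the low genes: 13 of the 28 genes rest on at most 339 counts per library.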

Other observations

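Most small subunit genes have short coding sequences. Among tested genes other than ribosomal protein genes, 983 of 1720 with a coding sequence under 600 bases (57.2%) lay above 0 in KO over WT, and the median log2 fold change was 0.018. Among those of 600 bases or more the share was 46.4% and the median -0.011. The part of coding length in the direction of the small subunit genes was not tested. Of 34 large subunit genes found in the promoter table, 22 had CGGAAG or CTTCCG in a promoter window. A run of at least 9 pyrimidines over a start was present in 10 of the 34.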
